A study of Homo sapiens with 12 samples.

Results

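The genes described here are the INK4 inhibitors, the kinases they bind and the D cyclins that activate those kinases: CDKN2A, CDKN2B, CDKN2C, CDKN2D, CDK4, CDK6, CCND1, CCND2 and CCND3. They were chosen as a family, by name, with earlier results of these data known. All 9 were found by symbol among the 62069 gene identifiers of the count table. RNA was sequenced from IMR90 ER:RAS cells, a line of human lung fibroblasts of fetal origin carrying a RAS oncogene joined to the hormone-binding region of the oestrogen receptor. The ligand 4-hydroxytamoxifen (4OHT) thereby switches RAS on. Each of 3 groups had 4 libraries, all from cells at passage 15 and day 6 and all carrying the same ER:RAS construct. DMSO libraries 17 to 20 came from cells given solvent, called non-senescent in the series design. Libraries 21 to 24 came from cells given 100 nM 4OHT, called senescent there, and libraries 29 to 32 from cells that also received 3-deazaadenosine (3DA). This adenosine analogue is a known inhibitor of the hydrolase that clears S-adenosylhomocysteine. For 3DA, neither dose nor day of addition is given in the sources used here. No cells without ER:RAS and no cells given 3DA without 4OHT were analysed here, so 4OHT itself and RAS activation cannot be told apart, and 3DA is seen only on top of 4OHT.

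A D cyclin joined to CDK4 or CDK6 phosphorylates the retinoblastoma protein, which then releases E2F transcription factors and lets a cell pass from G1 into S phase. The INK4 proteins bind CDK4 and CDK6 and keep the D cyclins from activating them. In fibroblasts, an active RAS oncogene is a classic trigger of senescence, a lasting arrest in which the products of CDKN2A are known as major brakes. CDKN2A encodes p16INK4a and, from another first exon and reading frame, p14ARF, which binds MDM2. CDKN2B encodes p15INK4b and is its neighbour on the same chromosome.

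CDKN2A and CDKN2B are shown here by sequence because these neighbours both rose with 4OHT, and 3DA lowered CDKN2A while CDKN2B was not called. The windows are the 250 bases before each start, read 5′ to 3′ on the gene's own strand from RefSeq on GRCh38.p14. That is not the authors' build, so no position is given for the deposited counts. Capitals mark GGGCGG, the core of the GC box bound by SP1, in either orientation. The first CDKN2A start belongs to the p14ARF first exon and the second to that of p16INK4a; their windows lie at chr9:21995325-21995574 and chr9:21974858-21975107, and that of CDKN2B at chr9:22009306-22009555, all on the minus strand.
CDKN2A start 1: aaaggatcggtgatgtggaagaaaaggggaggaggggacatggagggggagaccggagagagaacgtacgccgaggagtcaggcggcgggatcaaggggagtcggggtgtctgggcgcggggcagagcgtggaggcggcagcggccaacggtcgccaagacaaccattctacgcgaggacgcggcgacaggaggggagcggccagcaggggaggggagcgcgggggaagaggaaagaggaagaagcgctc
CDKN2A start 2: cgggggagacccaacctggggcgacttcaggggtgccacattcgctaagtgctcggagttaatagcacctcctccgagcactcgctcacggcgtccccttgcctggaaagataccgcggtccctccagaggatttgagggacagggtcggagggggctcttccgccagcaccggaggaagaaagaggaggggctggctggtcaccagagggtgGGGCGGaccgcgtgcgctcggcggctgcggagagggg
CDKN2B: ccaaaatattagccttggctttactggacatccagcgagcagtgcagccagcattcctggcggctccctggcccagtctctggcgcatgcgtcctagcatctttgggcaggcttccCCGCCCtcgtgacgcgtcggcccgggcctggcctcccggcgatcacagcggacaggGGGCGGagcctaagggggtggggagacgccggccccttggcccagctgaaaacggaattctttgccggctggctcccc

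The GC content was 66.8% in both CDKN2A windows and 66.4% in that of CDKN2B, against a median of 58.0% over 35116 promoters. GGGCGG stood once before the second CDKN2A start, with its first base 37 bases upstream, and began 134 and 78 bases upstream of CDKN2B. It occurred in 42.6% of all promoters. The letters of an E2F site (TTTNGCGC), an AP-1 site (TGA and TCA with any base between), a cyclic AMP response element (TGACGTCA), an ETS site (CCGGAAGT) and a TATA box (TATAAA), searched on both strands, matched none of these 3 windows. They occurred in 1.51%, 6.57%, 1.65%, 3.42% and 10.7% of promoters. Windows were found for 7 of the 9 genes. The deposited counts are per gene, so p16INK4a and p14ARF transcripts could not be separated.

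Levels are given as CPM, the count scaled to the effective (TMM-adjusted) library size, per M reads, in the order of the library numbers. A gene was called changed where edgeR's quasi-likelihood test, fitted to all 12 libraries and adjusted by Benjamini-Hochberg over 13248 genes, gave an adjusted p under 0.05. Libraries held 9451160 to 19291493 reads. Library 31 of the 4OHT+3DA group stood apart, with a median Spearman correlation to its own group of 0.986, against at least 0.992 for the others. The rest of that group was also more spread. The chi-square between paired libraries, per degree of freedom, was 10.5 to 15.7 among libraries 29, 30 and 32. Pairs within DMSO or within 4OHT had 3.16 to 8.39. This value also grows with depth. The fit used 1 estimate of the spread for all 3 groups. Whether replicates were separate cultures is not in the labels, so p-values reflect the spread between these samples alone, and that spread may be technical. In a bulk library, a lower level in each cell and fewer cells holding the RNA cannot be told apart. The comparisons share groups, so a gene's changes against DMSO and against 4OHT are not independent.

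With 4OHT, 6 of the 9 genes were called. CDKN2A, CDKN2B, CCND2 and CCND3 rose and CDKN2C and CDK6 fell. Of all genes tested, 52.0% were called in this comparison, 26.5% as higher and 25.5% as lower, so calls were common outside the family too. All 4OHT libraries lay above all DMSO libraries for 5 members, where 26.3% of genes did so, and below for 2, where 25.1% did. Adding 3DA to 4OHT lowered 3 of the 9, CDKN2A, CDK6 and CCND2, where 26.9% of all genes were called and 12.4% as lower. Without library 31 they were called too, at -0.52, -0.28 and -0.57 (log2). These 3 were also the members whose groups did not overlap, as in 25.0% of genes in either direction. By edgeR, 0 members were called higher there, against 14.4% of all genes, and among only 9 genes a count of 0 is close to that share. DESeq2 and limma-voom, run on the same counts, also called 0 higher. At an unadjusted p under 0.05 by edgeR, 0 were higher and 5 lower. The share of all genes at that threshold was not counted, so this count has no baseline and nothing is read from it. Against DMSO, 4OHT+3DA left CDKN2A, CDKN2B and CCND2 higher and CDKN2C and CDK6 lower, 5 of 9, where 51.5% of all genes were called, 27.0% as higher and 24.6% as lower. The median log2 fold change of the 9 genes was 0.21, -0.16 and 0.05 in the comparisons as listed, beside -0.01, 0.01 and 0.01 over all genes.

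**Figure D1:**
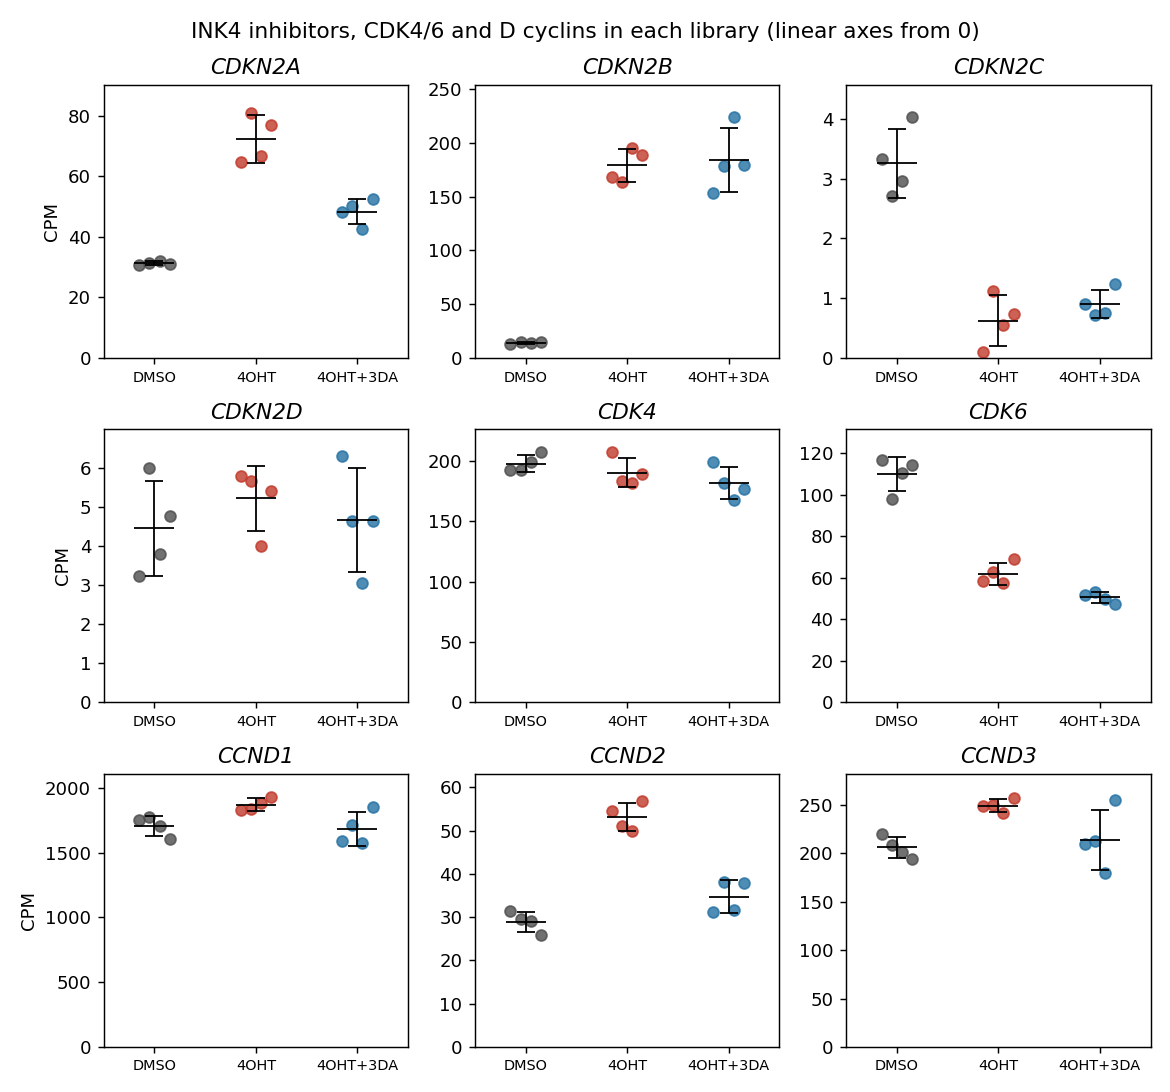
CPM of each gene in the 12 libraries on linear axes from 0; points are libraries, long bars the mean of 4 and whiskers ± 1 SD. CDKN2B stands near 14 CPM in DMSO and between 154 and 225 CPM in all 8 libraries given 4OHT, while CDKN2A takes a middle level with 3DA.

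Among the INK4 genes, CDKN2A was measured at 30.7, 31.4, 32.1 and 31 CPM in DMSO, 64.6, 81.0, 66.6 and 76.8 CPM in 4OHT, and 48.2, 50.2, 42.7 and 52.4 CPM in 4OHT+3DA. No library of any group overlapped another group, and every 4OHT+3DA value lay between the DMSO and the 4OHT values. CDKN2A rose 2.31-fold with 4OHT (log2 fold change 1.21, SE 0.092, adjusted p = 1.5e-09). It was lower by 0.58 log2 units with 3DA than with 4OHT alone (log2 fold change -0.58, SE 0.088, adjusted p = 8.2e-05), and still above DMSO (0.63, SE 0.091, adjusted p = 1.2e-05).

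CDKN2B was measured at 12.9, 14.6, 13.7 and 14.7 CPM in DMSO, 168, 164, 195 and 189 CPM in 4OHT, and 154, 179, 225 and 179 CPM in 4OHT+3DA. The 4OHT and 4OHT+3DA libraries overlapped, with library 31 the highest of all, and both groups lay far above DMSO. CDKN2B rose 12.8-fold with 4OHT (log2 fold change 3.68, SE 0.11, adjusted p = 1.9e-15) and stood 13.1-fold above DMSO with 3DA (3.72, SE 0.11, adjusted p = 2.8e-15). Between 4OHT+3DA and 4OHT the log2 fold change was 0.04, with a 95% interval of -0.16 to 0.24 (adjusted p = 0.79), and without library 31 it was -0.07. The 2 neighbouring inhibitors thus rose together with 4OHT, and only CDKN2A was called lower with 3DA; the difference between the genes was not tested.

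CDKN2C encodes p18INK4c, another INK4 protein. It was rare, at 3.33, 2.70, 2.96 and 4.04 CPM in DMSO, 0.0967, 1.12, 0.553 and 0.734 CPM in 4OHT, and 0.901, 0.722, 0.749 and 1.24 CPM in 4OHT+3DA. These rest on 157, 34 and 60 reads per group, and the lowest value, in library 21, on 1 read. All DMSO libraries lay above all others, and the other groups overlapped. CDKN2C fell with 4OHT (log2 fold change -2.33, SE 0.38, adjusted p = 3.6e-05) and was below DMSO with 3DA (-1.86, SE 0.35, adjusted p = 1.8e-04). The 95% interval of the change with 3DA, -0.40 to 1.34, is wide at this depth (adjusted p = 0.43).

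CDKN2D, which encodes p19INK4d, was at 3.23, 6.01, 3.79 and 4.77 CPM in DMSO, 5.80, 5.67, 4.01 and 5.4 CPM in 4OHT, and 6.30, 4.64, 3.05 and 4.63 CPM in 4OHT+3DA. The 3 groups overlapped throughout. Its log2 fold change was 0.21 with 4OHT (95% interval -0.28 to 0.69, adjusted p = 0.47) and -0.16 with 3DA (95% interval -0.63 to 0.31, adjusted p = 0.64), on 219 to 315 reads per group. The CV between libraries was 27.3%, 15.8% and 28.5% in DMSO, 4OHT and 4OHT+3DA, above the 13.5%, 12.2% and 11.3% of counting error alone. The gap was smallest in 4OHT, and none of these gaps was tested.

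**Figure D2:**
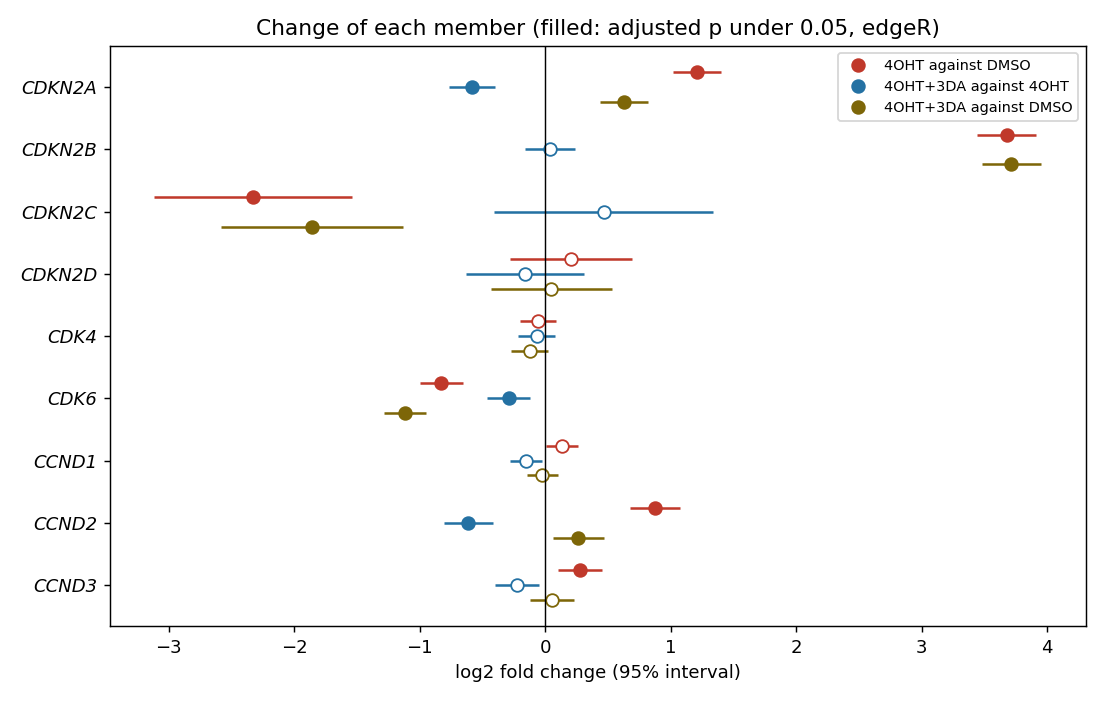
Log2 fold change of each gene in the 3 comparisons with its 95% interval; filled points have an adjusted p under 0.05 by edgeR. CDKN2B has the largest rise, 3.68 and 3.72 against DMSO, and its interval against 4OHT spans 0, unlike those of CDKN2A, CDK6, CCND1, CCND2 and CCND3. The intervals are not adjusted for the number of genes tested, and CCND1 and CCND3 were not called there.

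Of the 2 kinases, CDK6 was called lower in all 3 comparisons and CDK4 in none; the difference between them was not tested. CDK4 was at 192, 193, 199 and 207 CPM in DMSO, 207, 183, 182 and 189.5 CPM in 4OHT, and 199.6, 182, 168 and 177 CPM in 4OHT+3DA. The groups overlapped, and the log2 fold change was -0.06 with 4OHT (95% interval -0.20 to 0.09, adjusted p = 0.52), -0.07 with 3DA on top (95% interval -0.21 to 0.08, adjusted p = 0.50) and -0.12 between 4OHT+3DA and DMSO (95% interval -0.27 to 0.02, adjusted p = 0.15). With library totals in place of TMM, which shifts the median of all genes by -0.17 with 4OHT and -0.09 for 4OHT+3DA against DMSO, CDK4 was called lower in both, at -0.21 and -0.22.

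CDK6, the related kinase, was at 117, 98.2, 111 and 114 CPM in DMSO, 58.6, 62.9, 57.5 and 68.9 CPM in 4OHT, and 51.9, 53.4, 49.9 and 47.5 CPM in 4OHT+3DA. It stepped down from group to group with no overlap. CDK6 fell with 4OHT (log2 fold change -0.83, SE 0.081, adjusted p = 5.7e-08) and was lower again with 3DA (-0.29, SE 0.081, adjusted p = 0.013), so that 4OHT+3DA was 2.17-fold below DMSO (-1.12, SE 0.081, adjusted p = 9.9e-10). Without 4OHT library 24, the highest of its group, the second step was -0.23 and no longer called (adjusted p = 0.059).

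Among the D cyclins, CCND1, the form that RAS signalling is best known to induce, was at 1751, 1777, 1707 and 1602 CPM in DMSO, 1831, 1838, 1885 and 1934 CPM in 4OHT, and 1591, 1717, 1576 and 1853 CPM in 4OHT+3DA. All 4OHT libraries lay above all DMSO libraries, by a small margin, and the 4OHT+3DA libraries spread over both ranges. The log2 fold change was 0.13 with 4OHT (SE 0.061, adjusted p = 0.078) and -0.15 with 3DA (SE 0.061, adjusted p = 0.069), neither called. With library totals the first was -0.03; it was called at 0.13 without library 31 or without library 32, and at 0.12 with only the 8 libraries compared. The second was called by limma-voom (-0.16) and without library 32 (-0.20).

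CCND2 was at 31.4, 29.6, 29.1 and 25.8 CPM in DMSO, 54.6, 51.0, 50.0 and 56.9 CPM in 4OHT, and 31.2, 38.2, 31.6 and 38.0 CPM in 4OHT+3DA. The 4OHT libraries stood above all others, and the 4OHT+3DA range met the top of the DMSO range. CCND2 rose 1.84-fold with 4OHT (log2 fold change 0.88, SE 0.096, adjusted p = 2.7e-07) and fell with 3DA (-0.61, SE 0.094, adjusted p = 8.9e-05). The remaining difference from DMSO was 0.26 (SE 0.096, adjusted p = 0.027), and it lost its call without DMSO library 19 (0.27), DMSO library 20 (0.20), 4OHT+3DA library 30 (0.22) or 32 (0.22), with library totals (0.17) or with only the 8 libraries compared (0.24).

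CCND3 was at 220.2, 209, 202 and 194 CPM in DMSO, 249, 250.4, 242 and 257 CPM in 4OHT, and 209, 213, 179.7 and 255 CPM in 4OHT+3DA. The 4OHT libraries lay above the DMSO libraries, while 4OHT+3DA held both the lowest value, in library 31, and one close to the highest, in library 32. CCND3 rose 1.21-fold with 4OHT (log2 fold change 0.28, SE 0.084, adjusted p = 0.010), a call lost with library totals (0.12). Its change with 3DA, -0.22 (SE 0.084, adjusted p = 0.058), was called by DESeq2 (-0.22), by limma-voom (-0.23) and without library 32 (-0.31).

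Levels were set beside each other per kilobase of exon (the union of a gene's exons in GENCODE 29). In DMSO the order was CCND1 at 388 CPM per kb, CDK4 at 95.3, CCND3 at 52.3, CDKN2A at 9.91, CDK6 at 9.38, CCND2 at 4.47, CDKN2B at 3.47, CDKN2D at 2.96 and CDKN2C at 0.981. CDKN2A and CDK6 overlapped between libraries, as did CDKN2B and CDKN2D. With 4OHT, CDKN2B climbed to 44.4 CPM per kb, next after CCND3 at 63.3 and above CDKN2A at 22.9, and no neighbours in the order overlapped there. With the longest transcript as length, CDKN2A (56.3) stood above CDKN2B (45.8) in 4OHT, so the order of these genes turns with the length used. With 3DA, again by exon union, CDKN2B held the place next after CCND3, at 45.7 and overlapping CCND3 at 54.3. CDKN2A stood at 15.3, and CDK6 at 4.32 overlapped CDKN2D at 3.10.

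The D cyclins summed to 445 ± 20.1 CPM per kb in DMSO, 496 ± 11.9 in 4OHT and 442 ± 37.2 in 4OHT+3DA (SD, n = 4), and CCND1 made up 87.2%, 85.6% and 86.5% of them. CDKN2A held 57.4% of the INK4 sum in DMSO, 32.3% in 4OHT and 24% in 4OHT+3DA, while CDKN2B held 20%, 62.6% and 70.6%. All these shares use exon unions. With the longest transcript, CDKN2A (56.3 CPM per kb) stood above CDKN2B (45.8) in 4OHT, so the larger share there turned. The CCND1 share moves too, with CCND3 at 104 CPM per kb in 4OHT instead of 63.3. CDKN2B per CDKN2A was 0.350 ± 0.0215, 1.96 ± 0.295 and 3.02 ± 0.743, and the 4OHT libraries (1.58 to 2.30) did not overlap those of 4OHT+3DA (2.5 to 4.12, the highest in library 31). The INK4 sum per CDK4 and CDK6 sum was 0.166 ± 0.0109, 0.734 ± 0.0709 and 0.706 ± 0.109, the last pair overlapping. Any p14ARF transcripts are counted in the CDKN2A part of this sum, because they could not be separated from p16INK4a. CDK6 per CDK4 was 0.0984 ± 0.00715, 0.0578 ± 0.00621 and 0.0495 ± 0.00329, and the 4OHT libraries overlapped those of 4OHT+3DA. These ratios of RNA are descriptions, and they depend on the length used: with the longest transcript CDKN2B per CDKN2A was 0.147, 0.822 and 1.27, the INK4 sum per kinase sum was 0.308, 1.10 and 0.968, and CCND3 stood above CDK4 per kb in both groups given 4OHT.

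**Figure D3:**
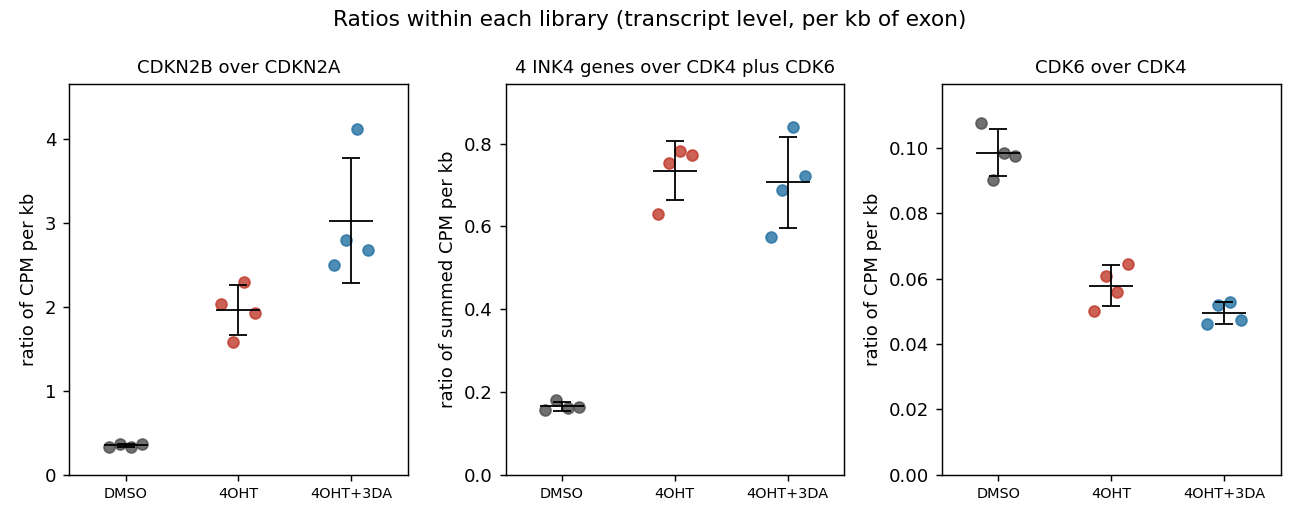
Ratios of CPM per kb within each library; points are libraries, long bars the mean of 4 and whiskers ± 1 SD. CDKN2B per CDKN2A climbs from 0.350 to 1.96 and 3.02, INK4 per kinase stands at 0.734 and 0.706 in the groups given 4OHT against 0.166 in DMSO, and CDK6 per CDK4 is 0.0984 in DMSO against 0.0578 and 0.0495 in the groups given 4OHT, which overlap. Lengths are exon unions, and other lengths move the first pair of ratios. CDKN2A counts do not separate p16INK4a from p14ARF transcripts.

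The other genes of the pathway were read from lists chosen by function, with earlier results of these data known. Their counts are therefore not an independent test. Of the 3 Cip/Kip inhibitors, which bind cyclin and kinase complexes more broadly, CDKN1A (p21) rose with 4OHT from 1012 ± 22.5 to 2684 ± 75.2 CPM (log2 fold change 1.41, SE 0.070, adjusted p = 2.6e-12) and fell with 3DA to 1606 ± 189 CPM (-0.74, SE 0.069, adjusted p = 2.6e-07; SD, n = 4). CDKN1B (p27) fell with 4OHT from 10.1 to 3.78 CPM (-1.42, SE 0.21, adjusted p = 1.3e-05) and was at 3.75 CPM with 3DA. Of 6 chaperone and activating-kinase genes that serve CDK4 and CDK6, 4 rose with 4OHT, where 26.5% of all genes did. They included CDC37, the kinase co-chaperone (331 to 496 CPM, log2 fold change 0.58, SE 0.069, adjusted p = 8.4e-07), HSP90AB1 (0.34, adjusted p = 4.0e-05) and CDK7 (0.38, adjusted p = 5.2e-04). CDC37 was the 1 of 6 that fell with 3DA (-0.26, adjusted p = 0.0094), where 12.4% of all genes fell.

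Of 8 genes of D cyclin turnover, 4 were called with 4OHT, all lower, where 52.0% of all genes were called and 25.5% as lower. They included FBXO4, an F-box protein reported to bind cyclin D1 (8.0 to 2.52 CPM, log2 fold change -1.66, adjusted p = 1.4e-07), its partner CRYAB (15.2 to 2.12 CPM, -2.85, adjusted p = 7.6e-09) and SKP2 (58.7 to 22.8 CPM, -1.37, adjusted p = 1.3e-09). The 4 not called were AMBRA1 (17.6, 17.7 and 16.1 CPM in DMSO, 4OHT and 4OHT+3DA), FBXO31, GSK3B and DYRK1B. With 3DA, FBXO4 (0.65, adjusted p = 0.011) and SKP2 (0.85, adjusted p = 5.6e-06) rose and CRYAB fell (-0.93, adjusted p = 0.029), the last a call lost without any 1 of libraries 21, 22, 24, 29 and 30 (-0.94 to -0.62).

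Downstream, of 12 tested pocket proteins and E2F factors, 7 fell and 3 rose with 4OHT, where 25.5% and 26.5% of all genes did, and 5 rose with 3DA, where 14.4% did. RB1, which encodes the retinoblastoma protein itself, went from 55.6 to 39.3 CPM with 4OHT (log2 fold change -0.50, adjusted p = 0.0099) and to 61.5 ± 20.2 CPM with 3DA (0.65, adjusted p = 0.0038; 0.40 without library 31). RBL1 (p107) went from 17.4 to 3.31 CPM (-2.40, adjusted p = 1.9e-09) and to 7.38 CPM (1.177, adjusted p = 1.6e-04). E2F1, an activating E2F, fell from 4.46 to 1.78 CPM with 4OHT (-1.34, adjusted p = 1.6e-04), and E2F7, a repressing E2F, rose from 33.3 to 171 CPM (2.36, adjusted p = 2.2e-13) and was at 172 CPM with 3DA.

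Of 18 E2F target genes of G1 and S phase, 15 fell with 4OHT and 1 rose (median log2 fold change -1.93, against -0.01 over all genes), and 15 rose with 3DA (median 0.76, against 0.01). Over all genes 25.5% fell and 26.5% rose with 4OHT, and 14.4% rose with 3DA. CCNE2, cyclin E2, went from 8.54 to 0.792 and 4.08 CPM in DMSO, 4OHT and 4OHT+3DA (log2 fold change -3.40 with 4OHT, adjusted p = 7.4e-09; 2.35 with 3DA, adjusted p = 1.1e-05). CCNA2, cyclin A2, went from 87.9 to 9.63 and 28.8 CPM (-3.19, adjusted p = 3.9e-14; 1.58, adjusted p = 1.8e-08). TK1, thymidine kinase, went from 155 to 14.4 and 36.4 CPM, still below DMSO with 3DA (-2.09, adjusted p = 2.0e-11). CDC6 (1.65, adjusted p = 2.0e-08) and RRM2 (1.42, adjusted p = 4.6e-10) also rose with 3DA. The mean levels of CCNE2, CCNA2 and TK1 with 3DA lay between the other groups. In the same libraries CDKN2A, CDK6, CCND2 and CDKN1A were lower than with 4OHT, and CDKN2B was not called. A link between these changes was not tested.

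**Figure D4:**
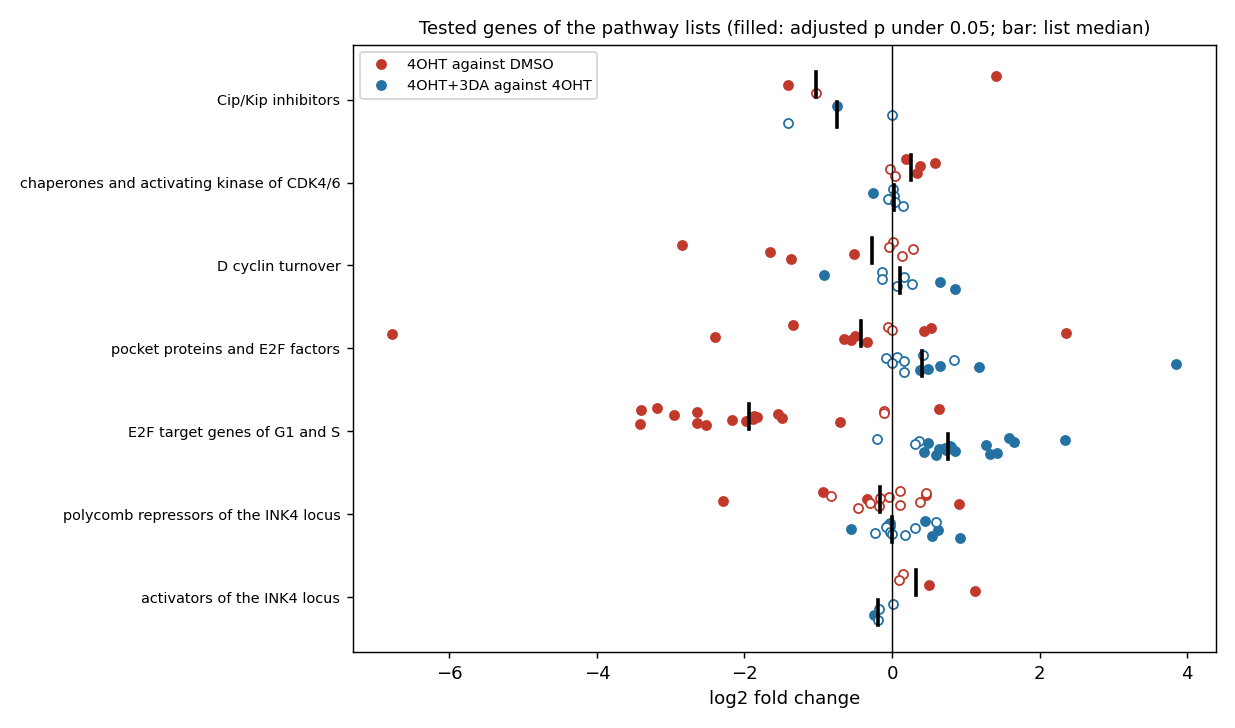
Log2 fold change of every tested gene of 7 pathway lists, 4OHT against DMSO above and 4OHT+3DA against 4OHT below in each row; filled points have an adjusted p under 0.05 and bars are list medians. E2F targets have medians of -1.93 and 0.76; the point farthest left is E2F8, a fitted value that rests on 1 read in the 4OHT group.

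Polycomb proteins are known to silence the INK4 locus. Of 15 tested, 2 rose and 3 fell with 4OHT, and 4 rose and 1 fell with 3DA. These 5 of 15 stand beside 52.0% of all genes called with 4OHT and 26.9% with 3DA. EZH2, the methyltransferase, fell from 29.2 to 5.94 CPM with 4OHT (log2 fold change -2.29, adjusted p = 5.5e-12) and rose to 9.22 CPM with 3DA (0.63, adjusted p = 0.0010), and PHC2 rose with 4OHT (0.91, adjusted p = 1.3e-06). EZH1, the relative of EZH2, fell with 3DA (-0.55, adjusted p = 0.0042), and SUZ12 (0.92, adjusted p = 0.0055; 0.58 without library 31) and RNF2 (0.54, adjusted p = 0.0025) rose. BMI1, the classic repressor of CDKN2A, was at 19.3, 20.7 and 28.4 CPM; its rise with 3DA (0.45, adjusted p = 0.024) lost its call without library 31 (0.26), 22 (0.44) or 24 (0.43). CBX7 was near 1 CPM in 4OHT (1.90, 1.06 and 1.06 CPM in the 3 groups) and was not called.

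Of 4 activators of the locus, 2 were called with 4OHT, beside 52.0% of all genes. These rose: KDM6B, a histone demethylase that opposes EZH2 (3.13 to 6.82 CPM, log2 fold change 1.12, adjusted p = 9.1e-05), and ETS2, a target of RAS signalling (58.2 to 82.1 CPM, 0.50, adjusted p = 1.8e-05). With 3DA, ETS2 fell (-0.24, adjusted p = 0.022), a call lost without any 1 of libraries 21, 23 and 30 (-0.23 to -0.22), and KDM6B was at 5.95 CPM (-0.19, adjusted p = 0.45). On the p14ARF side, MDM4, a relative of MDM2, fell with 4OHT (-1.09, adjusted p = 2.5e-07) and rose with 3DA (0.54, adjusted p = 0.0024).

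Of 8 neighbouring or antisense genes, 5 passed the filter on low counts. MTAP, beside CDKN2A, went from 42.0 to 84.0 CPM with 4OHT (log2 fold change 1.001, adjusted p = 2.3e-06) and to 149 ± 37.1 CPM with 3DA (0.82, adjusted p = 7.6e-05), so it rose where CDKN2A fell. DMRTA1, on the far side of CDKN2B, had 2, 82 and 34 reads per group. TSPAN31, which overlaps the end of CDK4, fell with 4OHT (-0.63, adjusted p = 1.4e-04), and BYSL, beside CCND3, rose (0.47, adjusted p = 4.8e-05). The antisense RNA CDKN2B-AS1 (ANRIL) stood at 0.674, 0.556 and 0.558 CPM, on 33, 28 and 38 reads. The kit does not mark strand, so reads of overlapping genes cannot be told apart.

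The 12 fibroblast markers summed to 14693 to 16364 CPM in DMSO, 9948 to 11161 CPM in 4OHT and 9644 to 10885 CPM in 4OHT+3DA, with 8 of 12 called lower and 1, FAP, higher with 4OHT, where 25.5% and 26.5% of all genes were. Sums of 10 epithelial markers were 127 to 150 CPM, 56.6 to 60.1 CPM and 42.2 to 54.2 CPM, of 10 endothelial markers 21.1 to 23.5 CPM, 40.9 to 44.7 CPM and 22.8 to 28.3 CPM, and of 10 immune markers 7.76 to 11 CPM, 6.47 to 9.12 CPM and 8.10 to 10.0 CPM. PECAM1, CDH5, CD3E and ITGAM had 0 reads in all groups. Of 5 tested endothelial markers, 3 rose with 4OHT: ROBO4 (2.86 to 17.7 CPM, log2 fold change 2.62, adjusted p = 1.1e-09), TIE1 (1.41, adjusted p = 0.0059) and EGFL7 (0.46, adjusted p = 0.0034). With 3DA, ROBO4 (-1.22, adjusted p = 2.9e-05) and TEK (-1.50, adjusted p = 8.2e-05) fell. Of 3 tested immune markers, FCER1G (2.42, adjusted p = 3.0e-05) and CSF1R (1.49, adjusted p = 0.015) rose with 4OHT, the latter losing its call without DMSO library 19 (1.23) or 20 (1.19), and CORO1A fell (-1.24, adjusted p = 1.6e-04). CSF1R was rare, at 0.798 to 1.84 CPM in the 4OHT libraries. A gene this rare can pass the filter on low counts through the groups where it is high. The endothelial sum moved with 4OHT and 3DA in the same direction as CDKN2A and CCND2, and its part in those values was not tested.

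The tested genes whose pattern over the 12 libraries was most like each member's were found by the root mean square difference of centred log2 CPM. SLC3A2 lay closest to CDKN2A, at 0.0757, with log2 fold changes of 1.184 with 4OHT and -0.54 with 3DA. SLC6A15 (0.168) and the collagenase MMP1 (0.181) lay closest to CDKN2B, and SNX9 (0.104) and PPP1R15A (0.105) to CCND2. SH3RF1 (0.0950) lay closest to CDK6, MATN3 (0.339) to CDKN2C, LDB1 (0.182) to CDKN2D, UQCRC2 (0.0567) to CDK4, CAPN5 (0.0454) to CCND1 and RIC8A (0.0568) to CCND3. Small values for CDK4, CCND1 and CCND3 go with their small range over the libraries.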

How the data were processed

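RNA-seq libraries were made by Smart-Seq2 and Nextera XT indexing, per the labels. The deposited values are raw counts, the whole number of reads in each gene; the submitters' processing notes name TopHat2 2.0.11, featureCounts 1.18.0, CASAVA 1.8.2, hg19 and GRCh37. How strand and multiply mapped reads were handled is not given in the sources used here. Of 62069 identifiers, 50127 were matched to symbols (GENCODE 29, GRCh38), and those without one held 0.488% of reads. Counts were fitted with edgeR 4.0.16 in R 4.3.3: filterByExpr with a minimum count of 10, TMM, 1 quasi-likelihood model of 12 libraries and 3 groups, 9 residual degrees of freedom, Benjamini-Hochberg threshold 0.05. The SE is the log2 fold change over the square root of F. The groups came from the labelled treatment. The steps were run on simulated counts drawn with the same spread in all groups, and the outcome is not reported here. Members and lists were chosen with earlier results of these data known. Named genes were the members, up to 4 called genes with the largest changes of each list, some regulators fixed by name, and the 2 genes nearest to each member, of which not all are printed; the cell type markers were named after their values were seen. Of 121 list entries, 120 were matched. Promoter windows came from RefSeq. Alternatives were DESeq2 1.42.0, limma-voom (limma 3.58.1), RLE factors, library totals, leaving out each library, fitting the 8 libraries compared, no filter, a filter at a mean of 1 CPM, and a threshold of 0.01; the longest transcript as length was added after the data were seen, as were the lists without library 31. Counting error alone limits genes with few reads, and the libraries carry no molecular identifiers. A result of the p14ARF list is not reported here.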

Additional observations from a re-analysis of the deposited data

Results flagged for a closer look

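Each group of 4 libraries was checked for a library at its edge that stood far from the rest, for all 9 members and the list genes taken by the rule for named genes. Of 219 groups checked, 13 held such a library, and 0 of the 27 groups of the members did. Chance alone gives 1 in 20, but the checks reuse the same 12 libraries and are not independent. The flags were most frequent in the 4OHT+3DA group, and there in library 31. In the 4OHT+3DA group, library 31 was high for CCNA2 (36.7 CPM, others 25.2 to 27.0), E2F7 (199.7 CPM, others 159 to 165), MDM4 (32.2 CPM, others 24.2 to 24.8) and PDGFRA (175 CPM, others 157 to 159.8), library 32 for COL3A1 (154 CPM, others 138 to 140.2), and library 29 was high for EZH1 (13.2 CPM, others 9.47 to 9.97) and TSPAN31 (22.6 CPM, others 17.3 to 18.2). In the 4OHT group, library 24 was low for DMRTA1 (1.001 CPM, others 1.74 to 1.84) and held the only read of E2F8 (0.0667 CPM). It was also high for KRT19 (4.07 CPM, others 2.69 to 2.87), and library 22 was low for CSF1R (0.798 CPM, others 1.73 to 1.84). In the DMSO group, library 19 was low for CDKN2B-AS1 (0.277 CPM, others 0.784 to 0.826) and library 17 for CCNH (59.0 CPM, others 70.5 to 72.7).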

How the results depend on the processing

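Of 513 member values under the alternatives, 483 kept their direction and side of the threshold, 10 gained a call, 8 lost one and 12 turned direction, none of these 12 called in the main analysis or in the alternative. With library totals, log2 fold changes that turned were CCND1 with 4OHT (-0.0265), CDKN2D (-0.0439) and CCND3 (-0.0409) for 4OHT+3DA against DMSO, BMI1 with 4OHT (-0.0511) and CBX7 with 3DA (0.0323). Without a filter on low counts, CCND1 for 4OHT+3DA against DMSO was 0.0191 and CBX7 with 3DA 0.00366. Leaving out 1 library at a time turned, for 4OHT+3DA against DMSO, CDKN2D (-0.13 to 0.23), CCND1 (-0.067 to 0.012) and CCND3 (-0.0367 to 0.13), and with 3DA, CDKN2B (-0.0693 to 0.12), CDKN2D (-0.34 to 0.000941) and CBX7 (-0.15 to 0.24). The cause was not tested. Library totals gave 2385 higher and 4727 lower calls with 4OHT (3511 and 3378 by TMM), 2535 and 1207 with 3DA (1909 and 1649), and 2798 and 4035 for 4OHT+3DA against DMSO (3572 and 3253). Members called with 3DA numbered 3, where 3558 of 13248 genes were called, 4 by DESeq2 (3816 genes) and 5 by limma-voom (3516 genes). With 1 library left out they numbered 2 to 5, with 2 without library 24 (2934 of 13423 genes) and 5 without library 32 (3956 of 13431). An adjusted p under 0.01 left 2 members and 1944 of 3558 genes called with 3DA. Fitting only the 8 libraries compared called 3 members and 2851 genes. With the longest transcript, the INK4 sum per CDK4 and CDK6 sum was 0.308, 1.10 and 0.968 in DMSO, 4OHT and 4OHT+3DA, and CDKN2B per CDKN2A 0.147, 0.822 and 1.27. CDKN2C and CDKN2D rest on 34 to 315 reads per group. The CV of CDKN2D between libraries was above that of counting error in each group, least clearly in 4OHT (15.8% against 12.2%). Whether 4 libraries could give such a gap by sampling was not tested. No paired analysis was possible because the groups share no replicate numbers.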
